A study of Rattus norvegicus with 6 samples.

Results

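Col1a1, Col1a2 and Col3a1, the genes for the chains of fibrillar collagens I and III, were followed in rat colon at a surgical join. They are 3 of the 21417 genes in the deposited expression table, and all 3 were above 0 in every library. They were taken by Ensembl identifier: ENSRNOG00000003897 for Col1a1, ENSRNOG00000011292 for Col1a2 and ENSRNOG00000003357 for Col3a1. The genes are set by identifier and not by a threshold on measured values, though earlier results of these data were known when they were chosen. The table gives identifiers without symbols, so the names are those assigned to these identifiers when the genes were chosen.

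The samples were tissue cut from the colonic anastomosis in male rats of the outbred Sprague-Dawley stock weighing 200 to 230 g. Every piece was taken 2 weeks after surgery. In the MCA group (3 libraries) the join was a magnetic compression anastomosis, where magnets clamp the opposed bowel walls until these heal into one. In the control group (3 libraries) it was a conventional suture anastomosis. The labels name no genetic change, list each library of a group as a biological replicate, and do not say which wall layers the cut piece held or how much bowel beside the join. No unoperated colon was analysed here, so each level below is that of an operated bowel. In tissue of mixed cells, fewer cells of a type and less RNA per cell cannot be told apart.

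Fibrillar collagens are long triple helices that pack into the cables giving the bowel wall its tensile strength. Type I collagen joins α1 chains, encoded by Col1a1, with an α2 chain, encoded by Col1a2. Type III collagen is built from a single kind of chain, encoded by Col3a1. In the gut these chains are made mainly by fibroblasts and smooth muscle cells, above all in the submucosa. In a healing wound type III collagen is prominent early, and type I takes over as the scar matures, so both the levels and the proportion of the chains are followed in studies of repair.

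One of the 3 genes, Col1a2, had an entry in the RefSeq promoter table for the rat assembly GRCr8. The first 120 bases of that entry are shown, as the regulatory stretch at hand for 1 of these genes. Any link between this sequence and the levels described below was not tested. The stretch lies on the plus strand at chr4:33518307-33518426, from 250 to 131 bases before the RefSeq start of the gene. Capitals mark a CCAAT box, here read on the other strand as ATTGG, and a TATA box, TATAAA:
Col1a2: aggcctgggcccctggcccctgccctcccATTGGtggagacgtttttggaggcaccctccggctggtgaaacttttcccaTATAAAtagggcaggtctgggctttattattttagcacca
The ATTGG begins 221 bases before that start and the TATAAA 170 bases before it. Both distances are counted from the RefSeq start. Where transcription began in these samples, and whether either match serves that start, was not tested. Searched on both strands in the same 120-base stretch, CCAAT was found in 17.1% of 33469 RefSeq promoters, TATAAA in 6.31%, and both in 1.12%. The 2 matches do not overlap. These are letter matches, and no binding was measured. In the same assembly the neighbours of Col3a1 annotated as protein-coding are Gulp1 and Col5a2, the latter encoding a chain of the minor fibrillar collagen V. Those of Col1a1 are Tmem92-ps1 and Sgca, and those of Col1a2 are Bet1 and Casd1. The annotated class of these neighbours was not checked further.

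Values are FPKM, that is, fragments divided by gene length and by library total. A comparison between genes is thus adjusted for length, but not for how reads were assigned to genes, which is not stated. The library totals recovered from them were alike, from 14867454 to 15791079 fragments. One library stood apart from its group. In MCA replicate 2, 2129 of the 13591 genes tested lay over 2-fold (in FPKM + 1) away from MCA replicate 1 and also from MCA replicate 3. The same count for the other 5 libraries, each against its own group, was 140 to 959. Group differences are therefore also given without it.

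Col1a1 was among the abundant transcripts of the join. Its level was 687, 1014 and 428 FPKM in MCA replicates 1, 2 and 3. With suture it was 296, 409 and 730 FPKM in replicates 1, 2 and 3. MCA replicate 2 was the highest library, suture replicate 3 came next, above the other MCA libraries, and suture replicate 1 was the lowest, so the groups overlapped. By level, Col1a1 ranked between 37 in MCA replicate 2 and 257 in suture replicate 1 among all genes of a library.

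Col3a1 was of a similar height per length, at 0.892 to 1.68 times Col1a1 in a library. Its level was 772, 969.8 and 382 FPKM in MCA replicates 1, 2 and 3. In suture replicates 1, 2 and 3 it was 497, 558 and 744 FPKM. The MCA libraries held both the highest and the lowest of the 6 values, and all suture libraries lay between MCA replicate 3 and MCA replicate 1. Its rank among all genes ran from 40 in MCA replicate 2 to 180 in MCA replicate 3.

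The row assigned to Col1a2 was far lower. Its level was 18.8, 35.6 and 13.2 FPKM in MCA replicates 1, 2 and 3. Suture replicates 1, 2 and 3 gave 10.2, 15.7 and 19.5 FPKM. Again MCA replicate 2 was highest and suture replicate 1 lowest, and the groups overlapped. This row ranked between 1797 and 6281 among the genes of a library, although its product is a partner of the Col1a1 product in the type I helix. It was behind Col1a1 in every library, and no reference used here pairs its identifier with a symbol. How the authors assigned reads to this row is not stated, and a part of that step in its low level was not tested. The gap was as plain in fragments, which were 712 to 2369 per library for this row, 26782 to 87801 for Col1a1 and 28381 to 68701 for Col3a1. The gene lengths recovered from the FPKM values were of one order, with 5825 bases for Col1a1, 4765 for Col3a1 and 4475 for this row.

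**Figure D1:**
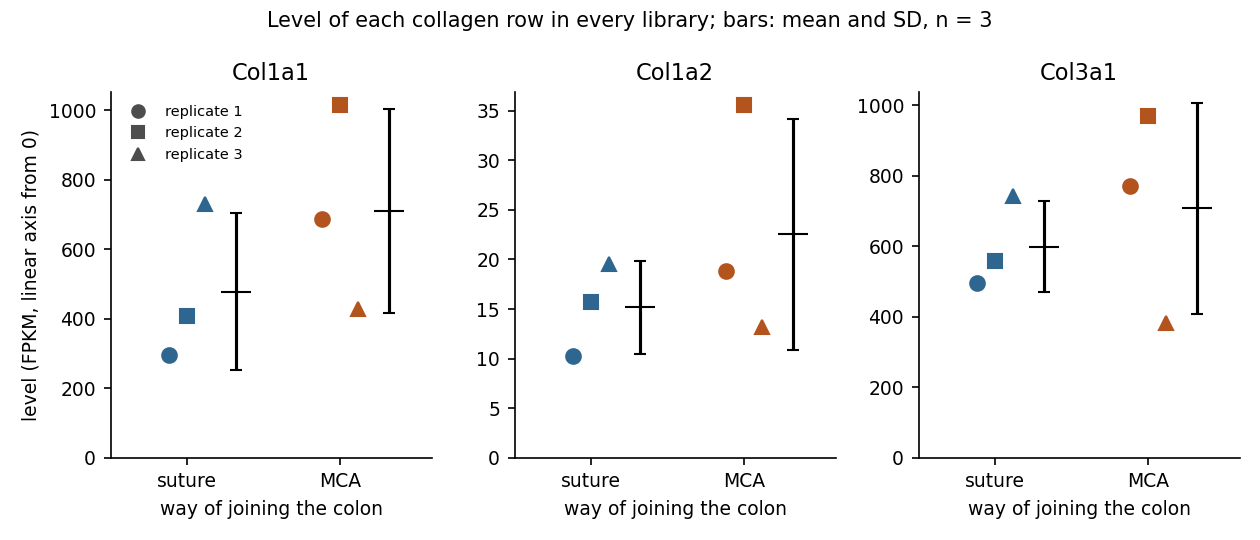
Level in FPKM (linear axis from 0, a separate axis for each gene) of Col1a1, Col1a2 and Col3a1 in each of 6 libraries, by way of joining the colon; symbols mark the replicate number and bars the mean and SD of 3 libraries. In each panel MCA replicate 2 is the highest point and the groups overlap.

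The 3 rows together made up 0.777%, 1.07% and 0.438% of the fragments of MCA replicates 1, 2 and 3. In suture replicates 1, 2 and 3 they made up 0.414%, 0.511% and 0.789%. Nearly all of this came from Col1a1 and Col3a1. The share averaged 0.761% ± 0.316 (SD, n = 3) with MCA, against 0.571% ± 0.195 (SD, n = 3) with suture. Without MCA replicate 2, an alternative added after seeing the data, the MCA mean was 0.607%.

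The study asked how gene expression at the join differed between the 2 ways of joining. No difference in any of the 3 collagen rows was detected. Col1a1 averaged 709.9 ± 293 FPKM (SD, n = 3) in the MCA libraries and 478 ± 226 FPKM (SD, n = 3) in the suture libraries, and the first mean was 1.48 times the other. The log2 fold was 0.59 ± 0.49 (standard error), with an unadjusted p of 0.267 and a Benjamini-Hochberg adjusted p of 0.9997 in limma on log2(FPKM + 1). Col1a2 averaged 22.5 ± 11.7 FPKM (SD, n = 3) in the MCA libraries against 15.2 ± 4.68 FPKM (SD, n = 3) after suture, 1.49 times as much. Here the log2 fold was 0.47 ± 0.40 (standard error), with limma p-values of 0.280 unadjusted and 0.9997 adjusted. Col3a1 had the smallest difference of the 3, at 708 ± 299 FPKM (SD, n = 3) in the MCA libraries against 599.5 ± 129 FPKM (SD, n = 3) after suture, 1.18 times as much. For Col3a1 the log2 fold was 0.16 ± 0.44 (standard error), with limma p-values of 0.731 unadjusted and 0.9997 adjusted. Each difference of means was smaller than the SD of the MCA libraries. For Col1a1 and Col1a2 it exceeded the SD of the suture libraries, and for Col3a1 it did not.

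The comparison as a whole called few genes. Of 13591 genes tested, 0 passed an adjusted p of 0.05 (limma), which is 0%, and 667, or 4.91%, had an unadjusted p under 0.05. With limma-voom on the recovered fragments these counts were 0 and 644. None of the 3 collagen rows was among either set. The groups did not overlap in 8.7% of the genes tested (6.18% with all MCA libraries above all suture libraries), and in 0 of the 3 collagen rows. All 3 rows had a higher mean log2 value with MCA, as 46.6% of the genes tested did, and the median log2 fold over all genes tested was -0.02. A larger log2 fold than that of Col1a1 was found in 6.40% of the genes tested, than that of Col1a2 in 8.73%, and than that of Col3a1 in 26.9%.

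The size of each difference moved with single libraries. Without MCA replicate 2 the log2 fold of Col1a1 was 0.29, that of Col1a2 was 0.10 and that of Col3a1 turned to -0.12 (limma, adjusted p = 0.919, 0.969 and 0.969). Without MCA replicate 3, the lowest MCA library for all 3 rows, the log2 folds were 0.91, 0.78 and 0.55 in the same order (limma, adjusted p = 0.9997 for each). Without suture replicate 1 they were 0.29, 0.23 and 0.03, and without suture replicate 3 they were 0.94, 0.67 and 0.32 (limma, adjusted p = 0.9998 and 0.9999 for each row). Without MCA replicate 1 the log2 fold of Col3a1 was 0.04 (limma, adjusted p = 0.9994).

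**Figure D2:**
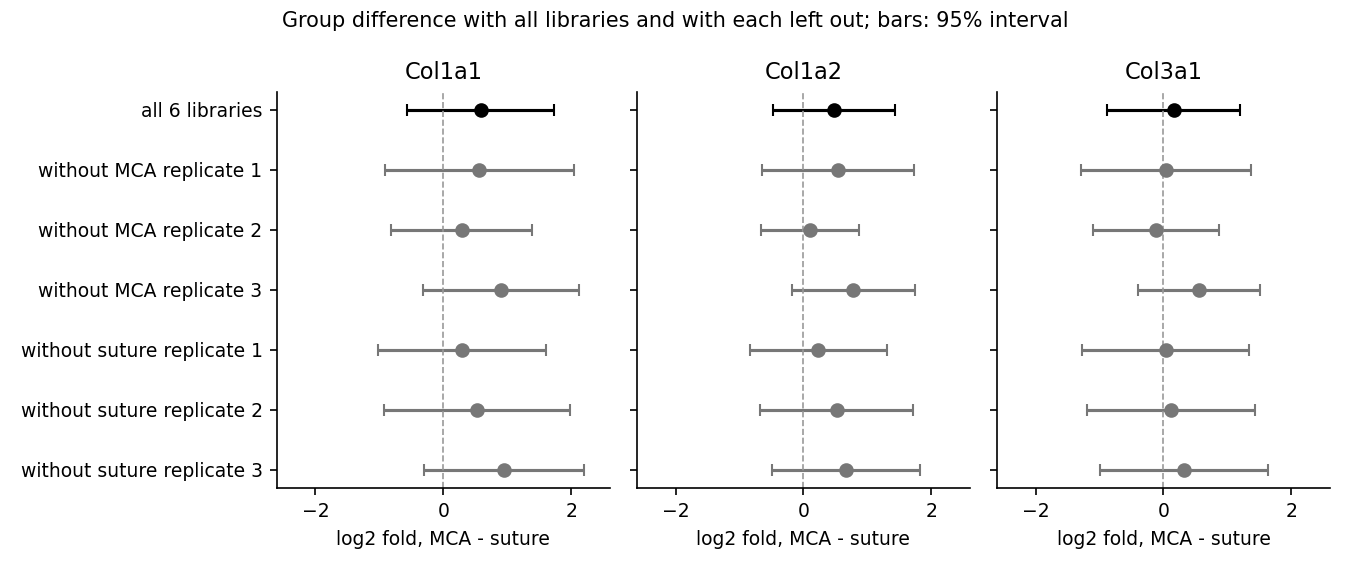
Log2 fold of MCA against suture (horizontal axis, log2(FPKM + 1) units) for each collagen row, with all 6 libraries at the top and with each library left out in turn below; points are limma estimates and bars their 95% intervals. Every interval crosses the dashed line at 0, and the Col3a1 estimate lies at -0.12 without MCA replicate 2.

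The intervals say which differences remained possible. The 95% interval of the log2 fold ran from -0.56 to 1.73 for Col1a1, from -0.48 to 1.43 for Col1a2 and from -0.88 to 1.20 for Col3a1. On the scale of FPKM + 1 these are folds of 0.677 to 3.33, 0.716 to 2.69 and 0.543 to 2.29 of MCA over suture. A level 2-fold higher with MCA lay inside all 3 intervals. A level 2-fold lower lay outside them with all 6 libraries, but this did not hold throughout. The lower bound for Col3a1 passed -1 without MCA replicate 1 (-1.29), MCA replicate 2 (-1.11), suture replicate 1 (-1.27) or suture replicate 2 (-1.20), and that for Col1a1 did so without suture replicate 1 (-1.03). Counting error was small beside the width of these intervals, at 0.337% to 0.611% of the Col1a1 value and 2.05% to 3.75% of the Col1a2 value in a library. For Col3a1 it was 0.382% to 0.594%. Reads from amplified libraries are not independent molecules, so these errors and the intervals of the ratios below cover counting only.

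Most of the width came from the spread between libraries of the same group. Col1a1 varied 2.37-fold among MCA libraries and 2.47-fold among suture libraries, from the lowest to the highest. Col1a2 varied 2.70-fold and 1.91-fold. Col3a1 varied 2.54-fold with MCA and 1.497-fold with suture. The SD of log2(FPKM + 1) within groups was 0.64 for Col1a1, 0.58 for Col1a2 and 0.54 for Col3a1, where the median over all genes tested was 0.37. Of the genes tested, 79.5% had a smaller spread than Col1a1, 75.2% than Col1a2 and 71.1% than Col3a1. Abundant genes as a class were more variable: for the 679 genes averaging 100 FPKM or more the median SD was 0.53, and 65.1% of them had a smaller spread than Col1a1 and 52.1% than Col3a1.

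**Figure D3:**
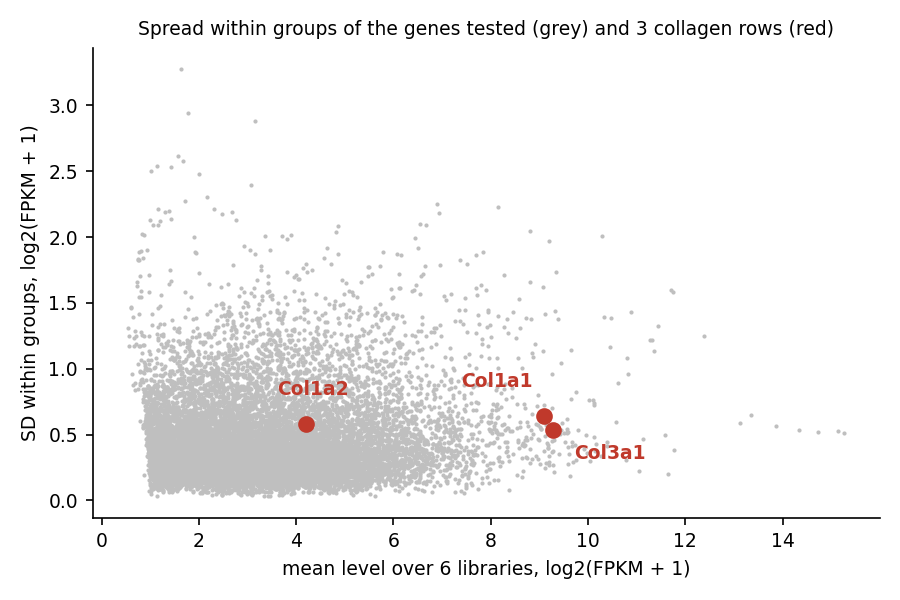
SD within groups of log2(FPKM + 1) (vertical axis) against the mean of log2(FPKM + 1) over 6 libraries (horizontal axis) for the 13591 genes tested, in grey, with the 3 collagen rows in red. Col1a1, at 0.64, and Col3a1, at 0.54, lie at the abundant end and Col1a2, at 0.58, in the middle of the range of levels, all above the median of 0.37.

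The 3 rows went up and down together across libraries of both groups. Relative to its own mean of log2(FPKM + 1), Col1a1 deviated by 0.33, 0.89 and -0.35 in MCA replicates 1, 2 and 3. In suture replicates 1, 2 and 3 it deviated by -0.88, -0.42 and 0.42. The other rows had the same sign as Col1a1 in each of the 6 libraries. Col1a2 ran from -0.72 in suture replicate 1 to 0.99 in MCA replicate 2, and Col3a1 from -0.71 in MCA replicate 3 to 0.64 in MCA replicate 2. The rows parted most in suture replicate 1, where Col1a1 and Col1a2 were at their lowest and Col3a1, at -0.33, was not. Col3a1 was lowest in MCA replicate 3.

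**Figure D4:**
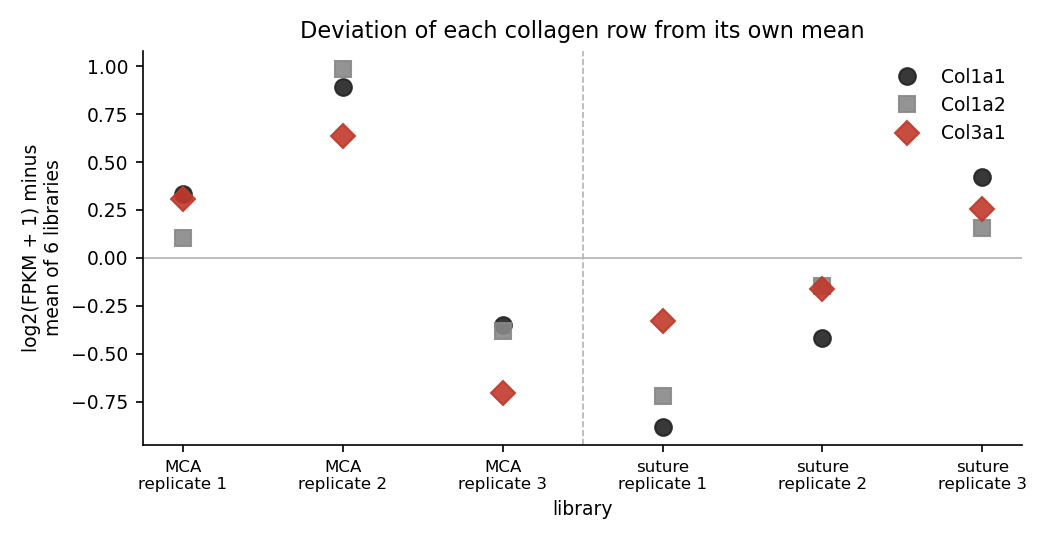
Deviation of log2(FPKM + 1) from the row's own mean over 6 libraries (vertical axis) for Col1a1, Col1a2 and Col3a1 in each library (horizontal axis, groups separated by the dashed line). All 3 rows are above 0 in MCA replicates 1 and 2 and suture replicate 3 and below 0 in the other 3 libraries; Col3a1 lies above the type I rows in suture replicate 1 and below them in MCA replicate 3.

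The balance of type III to type I transcripts was read from ratios within each library, which do not depend on library total. Protein was not measured here, so these are not ratios of chains. Col3a1 per Col1a1 came to 1.12, 0.957 and 0.892 for MCA replicates 1, 2 and 3. Suture replicates 1, 2 and 3 gave 1.68, 1.36 and 1.02. Col3a1 exceeded Col1a1 in all suture libraries and in MCA replicate 1, and the groups overlapped only in that MCA replicate 1 lay above suture replicate 3. The gap between those libraries was beyond counting error, with 95% exact (Clopper-Pearson) intervals of 1.11 to 1.14 and 1.01 to 1.03. The MCA ratio was the lower in 8 of 9 pairs of an MCA with a suture library.

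Averaged over libraries, the Col3a1 to Col1a1 ratio was 0.991 ± 0.119 (SD, n = 3) with MCA, against 1.36 ± 0.332 (SD, n = 3) with suture. The difference of mean log2 ratios was -0.43, MCA minus suture, and no group difference was detected (two-sided exact permutation test, p = 0.2, adjusted over the 3 ratios p = 0.45). With 3 libraries against 3 this test cannot give a p below 0.1. The sign was the same with each library left out, from -0.62 without suture replicate 3 to -0.26 without suture replicate 1, and it was -0.41 without MCA replicate 2. Suture replicate 1, where Col1a1 was lowest of the 6 libraries, gave the highest ratio, and its removal changed the difference by over 1.5 times.

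Against Col1a2, Col3a1 showed a similar order. The Col3a1 to Col1a2 ratio was 41.0, 27.2 and 29.0 in MCA replicates 1, 2 and 3. In suture replicates 1, 2 and 3 it was 48.6, 35.5 and 38.1. MCA replicate 1 lay among the suture libraries, and the other MCA libraries lay below all of them. Means were 32.4 ± 7.49 (SD, n = 3) with MCA, against 40.7 ± 6.93 (SD, n = 3) with suture, a log2 difference of -0.34 (two-sided exact permutation test, p = 0.3, adjusted p = 0.45). Leaving out MCA replicate 1 gave a difference of -0.52, leaving out MCA replicate 2 gave -0.23, and leaving out suture replicate 1 gave -0.21. It shares the Col3a1 values with the ratio above and is not a separate observation of them.

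The ratio of the type I rows to each other had the least spread over the 6 libraries, though not within either group. Col1a1 per Col1a2 was 36.5, 28.5 and 32.5 in MCA replicates 1, 2 and 3. In suture replicates 1, 2 and 3 it was 28.9, 26.0 and 37.4. The suture libraries held both the lowest and the highest value, so the groups overlapped. Means were 32.5 ± 4.01 (SD, n = 3) with MCA, against 30.8 ± 5.89 (SD, n = 3) with suture, a log2 difference of 0.09 (two-sided exact permutation test, p = 0.8, adjusted p = 0.8). Leaving out MCA replicate 1 gave 0.0004 and leaving out MCA replicate 2 gave 0.18. Leaving out suture replicate 1, 2 or 3 gave 0.05, -0.02 or 0.24. From the lowest to the highest library this ratio varied 1.43-fold, while Col3a1 to Col1a1 varied 1.89-fold and Col3a1 to Col1a2 1.78-fold. Among MCA libraries alone it varied 1.28-fold, against 1.26-fold for Col3a1 to Col1a1 and 1.51-fold for Col3a1 to Col1a2. Among suture libraries alone it varied 1.43-fold, against 1.65-fold for Col3a1 to Col1a1 and 1.37-fold for Col3a1 to Col1a2. Whether those spreads differ was not tested.

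**Figure D5:**
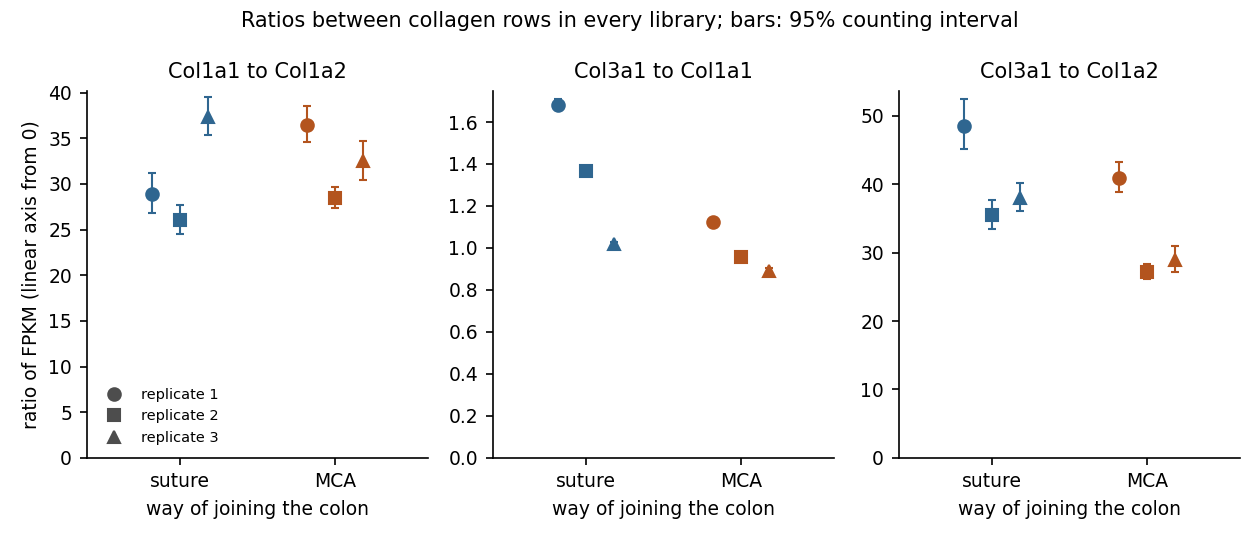
Ratio of FPKM between collagen rows within each library (vertical axis, linear from 0, a separate axis for each ratio), by way of joining the colon; symbols mark the replicate number and bars the 95% counting interval. In the Col3a1 to Col1a1 panel MCA replicate 1, at 1.12, is the single MCA point above a suture point, the 1.02 of suture replicate 3.

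How closely the rows tracked one another can be set beside all other genes. The SD over 6 libraries of the difference between the centred log2(FPKM + 1) values of 2 genes is 0 when they keep a constant ratio of FPKM + 1. For genes of low level the added 1 narrows the differences between libraries. It was 0.22 between Col1a1 and Col1a2, and 18 of the other genes tested were closer to Col1a1 than Col1a2 was, while 53 were closer to Col1a2 than Col1a1 was. Between Col1a1 and Col3a1 it was 0.35, with 168 genes, Col1a2 among them, closer to Col1a1 and 825, or 6.07%, closer to Col3a1. Between Col1a2 and Col3a1 it was 0.29, with 224 genes, Col1a1 among them, closer to Col1a2 and 389, or 2.86%, closer to Col3a1. The median over all genes was 0.74 from Col1a1, 0.70 from Col1a2 and 0.61 from Col3a1. These values describe 6 libraries that share their totals and tissue make-up across genes, and no test was attached to them.

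By the same measure, the genes most like the mean profile of the 3 rows were ENSRNOG00000036859, with an SD of the difference of 0.09, and ENSRNOG00000007827, with 0.10, over 6 libraries. The median of the 13588 other genes was 0.66, and 46 of them were under 0.2. ENSRNOG00000036859 stood at 6.98, 11.4 and 3.89 FPKM in MCA replicates 1, 2 and 3 and at 3.11, 5.29 and 8.27 FPKM in suture replicates 1, 2 and 3, on 163 to 569 fragments. ENSRNOG00000007827 stood at 6.66, 10.3 and 4.32 FPKM in the MCA libraries and at 3.23, 5.21 and 7.60 FPKM in the suture libraries, in the same order, on 53 to 162 fragments. Both were highest in MCA replicate 2 and lowest in suture replicate 1, as Col1a1 was. This order and the log2 folds that follow largely result from picking the genes by likeness over these same libraries. They are not separate observations. Both had a log2 fold of MCA against suture of 0.34, with standard errors of 0.43 and 0.37 (limma, adjusted p = 0.9997 for both). The identifiers are given without symbols, and what these genes encode is not described here.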

How the data were processed

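RNA from anastomotic tissue was extracted with TRIzol, made into libraries with the NEBNext Ultra RNA kit and sequenced on a DNBSEQ-T7, per the labels' protocols. The deposited values are FPKM, made by the authors, per the labels' protocols. The submitters' processing notes name limma without a role. Which aligner, counter, genome build, annotation and strandedness were used is not given in the sources used here. The members, lists and tests were chosen with earlier results of these data known.

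Library totals, gene lengths and whole fragments were recovered from the full-precision FPKM values: every gene gave whole fragments within 1e-06 of a fragment. A factor common to a gene's length and all its fragments would go unseen. Listed genes held 99.55% to 99.64% of each total. The main test was limma 3.58.1 (R 4.3.3) on log2(FPKM + 1), over the 13591 genes averaging 1 FPKM or more, with a mean-variance trend, no covariates and Benjamini-Hochberg adjustment over all genes tested (threshold 0.05). Limma p-values set the group difference against the spread between the 3 libraries of a group, which limma moderates across all genes tested. Ratios were compared by exact permutation of log2 ratios. Genes named beyond the collagens were those closest to their mean profile. Recovery and limma were tested on simulated data. Scripts used Python 3.11.15, numpy 2.4.6, pandas 2.3.3, scipy 1.17.1 and matplotlib 3.10.9.

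The reference table of 47357 rat genes (GRCr8) matched 0 of the 21417 identifiers. The 116 symbols in 4 lists of matrix genes and 7 lists of cell type markers were therefore not analysed, and the labelled tissue could not be checked against markers.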

Additional observations from a re-analysis of the deposited data

How the results depend on the processing

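The alternatives were 2 other pseudocounts (0.1 and 0.5), no filter or a mean of 5 FPKM, 4 other scalings, array quality weights, the replicate number as a block, limma-voom on recovered fragments, and each library left out. In all 17 of them no collagen row passed an adjusted p of 0.05 (limma). The filters and the replicate block cannot change a log2 fold. Over all the alternatives the log2 fold stayed above 0 for Col1a1 (0.29 to 0.94) and Col1a2 (0.10 to 0.78). For Col3a1 it ran from -0.12 to 0.55, below 0 only without MCA replicate 2, and with no filter the lower bound of its 95% interval was -1.003. Array weights gave 0.32 for Col1a1, 0.18 for Col1a2 and 0.14 for Col3a1. The count of genes past the adjusted threshold was 0 in 16 alternatives and 35 with array weights (0.290 for MCA replicate 2 to 4.31 for MCA replicate 1). At an unadjusted p under 0.05 it was 667, but 334 with a mean of 5 FPKM, 1360 with array weights, 1141 with the replicate block and 1062 without MCA replicate 2. The Col1a1 to Col1a2 log2 difference was -0.0026 as a ratio of group means, and ran from -0.024 (without suture replicate 2) to 0.24 with 1 library left out. The Col3a1 to Col1a1 and Col3a1 to Col1a2 differences kept their sign in all 9 alternatives each, though the replicate block cannot change them.

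The labels do not say that replicate numbers pair animals, so the numbers were not taken as pairs in the main test. Deviations of same-numbered libraries correlated at 0.42, 0.53 and -0.0016, and those of libraries with different numbers at -0.47 to 0.28. Whether the numbers mark pairs was not tested. In this balanced design the replicate block cannot change the log2 folds, which were 0.59, 0.47 and 0.16 for Col1a1, Col1a2 and Col3a1. With the block the adjusted p was 0.799, 0.786 and 0.953 in the same order (limma). Paired sign-flip tests of the ratios, which cannot give a p below 0.25, gave an exact permutation p of 0.75 for Col1a1 to Col1a2 and 0.25 for both others.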
